A study of Mus musculus with 12 samples.

Results

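Potassium channel genes were examined in the left ventricle of mice with and without ischemic preconditioning (IP), on 12 Affymetrix arrays. The family was taken as every probe set whose single gene symbol begins with Kcn, together with Abcc8 and Abcc9, the sulfonylurea receptors of ATP-sensitive channels. The rule found 184 probe sets for 85 genes, out of 45037 probe sets in all, of which 40137 carried exactly 1 symbol, 21001 symbols in total. It also takes in Kcnq1ot1, a non-coding RNA read antisense to Kcnq1 and no channel. Of the 85 genes, 32 had 1 probe set and 53 had several, up to 11. A probe set was tested where its mean log2(signal + 16) lay above the 40th percentile of the array, which is 5.78, and 74 probe sets of 53 genes did. The brightest probe set of each of these genes was used. The other 32 genes had no probe set above the filter, and no signal of theirs exceeded 105.4 units.

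All mice were males of 12 weeks, labelled as strain BL6/C57, and all tissue was the area of the left ventricle at risk. They were wild type or A2BAR-/-, lacking the adenosine A2B receptor, a receptor that raises cAMP, and the labels give no other allele. IP hearts had 4 cycles of 5 min of ischemia and 5 min of reperfusion, and then 2 h of reperfusion. The control hearts are called untreated in one label and sham operated in another, and the wild-type mice are called both purchased and littermates, so IP and surgery, and the deletion and the source of the mice, cannot be told apart. Control and IP hearts of each genotype made 4 groups of 3 arrays, which limits the precision. The labels do not say whether they came from separate animals, so p-values measure the spread between these arrays only.

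Potassium channels let potassium leave the cell, which sets the resting potential and ends the action potential. In the ventricle, inward rectifiers hold the resting potential, voltage-gated channels repolarize the cell, and ATP-sensitive channels open when ATP falls. ATP-sensitive channels pair a pore subunit with a sulfonylurea receptor, and their opening has long been studied in preconditioning. Accessory subunits of the Kcne, Kcnip and Kcnab groups tune the pores they bind.

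The promoters of Kcne4, Kcna5 and Kcnj8 are shown because these were the family genes that passed the test for IP in both genotypes. The sequences are from RefSeq (GRCm38.p6), run from 250 bases before to 50 bases after the annotated start, and read 5′ to 3′ on the gene's own strand. They lie at chr1:78816661-78816960 (plus strand, Kcne4), chr6:126535506-126535805 (minus strand, Kcna5) and chr6:142571565-142571864 (minus strand, Kcnj8).
Kcne4: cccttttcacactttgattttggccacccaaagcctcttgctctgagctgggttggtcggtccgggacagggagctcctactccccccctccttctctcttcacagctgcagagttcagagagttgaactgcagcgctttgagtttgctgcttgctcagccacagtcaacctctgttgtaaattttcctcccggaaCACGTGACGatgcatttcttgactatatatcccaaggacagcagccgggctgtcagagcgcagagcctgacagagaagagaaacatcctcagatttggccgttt
Kcna5: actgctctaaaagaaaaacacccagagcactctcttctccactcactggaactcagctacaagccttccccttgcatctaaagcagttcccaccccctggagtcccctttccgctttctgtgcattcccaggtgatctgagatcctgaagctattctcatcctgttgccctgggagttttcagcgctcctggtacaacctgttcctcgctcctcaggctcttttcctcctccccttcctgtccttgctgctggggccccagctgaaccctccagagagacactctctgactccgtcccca
Kcnj8: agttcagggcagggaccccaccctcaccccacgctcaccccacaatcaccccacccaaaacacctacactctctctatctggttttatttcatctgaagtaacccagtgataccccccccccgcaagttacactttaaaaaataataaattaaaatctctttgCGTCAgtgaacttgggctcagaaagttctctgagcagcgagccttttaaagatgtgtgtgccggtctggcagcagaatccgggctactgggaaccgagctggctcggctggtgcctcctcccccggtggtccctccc
Capitals mark the matches of 3 motifs searched on both strands. They are CACGTG, an E-box, TGACG, the core of a cAMP response element, and TGANTCA, the AP-1 motif. Kcne4 held CACGTG at −54 and TGACG at −50 from the start, and these matches overlap. Kcnj8 held TGACG on the opposite strand at −87, printed as CGTCA. Kcna5 held none of the motifs in this window. The table listed 85 promoters for 61 of the family's genes. CACGTG was present in 7.06% of these promoters and in 7.15% of all 32851 promoters. TGACG was present in 17.6% of the family's promoters and 20.8% of all, and TGANTCA in 4.71% and 7.81%. A match describes letters in the window and is not a binding site.

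Median signals of the arrays lay between 66.5 and 81.1 units. On wild-type control array 3, 1425 neighbouring probe sets read 0 without a break. They were treated as missing, and 5 of them belong to the family. Adora2b, which encodes the A2B receptor, read 206.9, 164.6 and 155.5 units on the wild-type IP arrays against 52.3, 61.5 and 47.7 in knockout IP. In controls it read 42.1, 71.1 and 72.0 in wild type and 18.6, 52.0 and 62.6 in knockout, so these groups overlapped, and no label says whether its probes lie in the deleted part. All 10 cardiomyocyte markers were above the filter, and the summed signal of these markers was 429832 to 476185 units in wild-type control, 507899 to 520019 in wild-type IP, 434431 to 474442 in knockout control and 437473 to 464018 in knockout IP. After IP, 5 of the 10 were past the threshold and higher in wild type, where 6.54% of all genes were higher. In knockout 0 passed, and the median log2 change of these markers was 0.197 in wild type and −0.029 in knockout. Neutrophil markers were higher after IP, with 6 of 6 tested past the threshold in wild type and 5 of 6 in knockout. Their summed signal was 796 to 8571 units in wild-type control, 8748 to 25197 in wild-type IP, 1262 to 2085 in knockout control and 7422 to 16433 in knockout IP. The highest control value belonged to wild-type control array 3, which stood close to the lowest wild-type IP array, while the other wild-type control arrays read 796 and 867. Without that array the wild-type count of family genes given next was 4, the knockout count 10 and the count in the average 12, and the part of these cells in the results was not tested. In these bulk samples, fewer cells of a type and less RNA per cell cannot be told apart.

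After IP, 5 of the 53 tested family genes passed in wild type, 3 higher (Kcne4 and Kcna5 among them) and 2 lower (Kcnj8, Kcnn2), where 6.54% of all genes were higher and 10% lower. In the knockout 9 passed, 4 higher (Kcne4, Kcna5, Kcnk13, Kcnq1ot1) and 5 lower (Kcnj5, Kcnj8, Kcnn4, Kcnk2, Kcnj11), where 4.82% of all genes were higher and 7.32% lower. Averaged over both genotypes, 12 passed, 4 higher (Kcne4, Kcna5 and Kcnk13 among them) and 8 lower (Kcnj8, Kcnj5, Kcnn2, Kcnk6, Kcnk2, Kcna7, Kcnd3, Kcnq1), where 8.52% of all genes were higher and 17.7% lower. The test was limma's moderated test with Benjamini-Hochberg adjustment over all 14044 genes at an adjusted p below 0.05. Of all genes, 16.6% passed in wild type, 12.1% in knockout and 26.2% in the average, against 9.43%, 17% and 22.6% of the family. The family's share was thus below the background in wild type and in the average and above it in knockout. No test was made of the list, and none of these differences is read as a result about the family. With an array left out in turn, the wild-type count ran from 1 to 6. The 9 knockout calls include Kcnk13, which passed the filter through its IP groups, and Kcnq1ot1, which is no channel. With the filter at the 60th percentile the knockout count was 5, so the share above the background is no result about the family. The median log2 change of the family was 0.075 in wild type and −0.114 in knockout, against −0.054 and −0.083 over all genes. With the filter at the 60th percentile the family's wild-type median was −0.003, against −0.07 over all genes. That median was 0.021 without wild-type IP array 2 and 0.22 without wild-type IP array 3. Kcne4, Kcna5 and Kcnj8 were called in both genotypes, which is 60% of the wild-type calls and 33.3% of the knockout calls. Over all genes 1116 were called in both, 47.9% of the wild-type calls and 65.5% of the knockout calls. IP effects in the 2 genotypes, which share no arrays, had the same sign in 58.5% of the family genes and in 70.1% of all genes. Pearson r was 0.43 and Spearman rho 0.43 across 53 family genes, against r 0.71 over all genes, given as a description. Some tested family genes were dim, such as Kcns2 with 3 group means below the filter. The part of dim genes in these values was not tested.

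**Figure D1:**
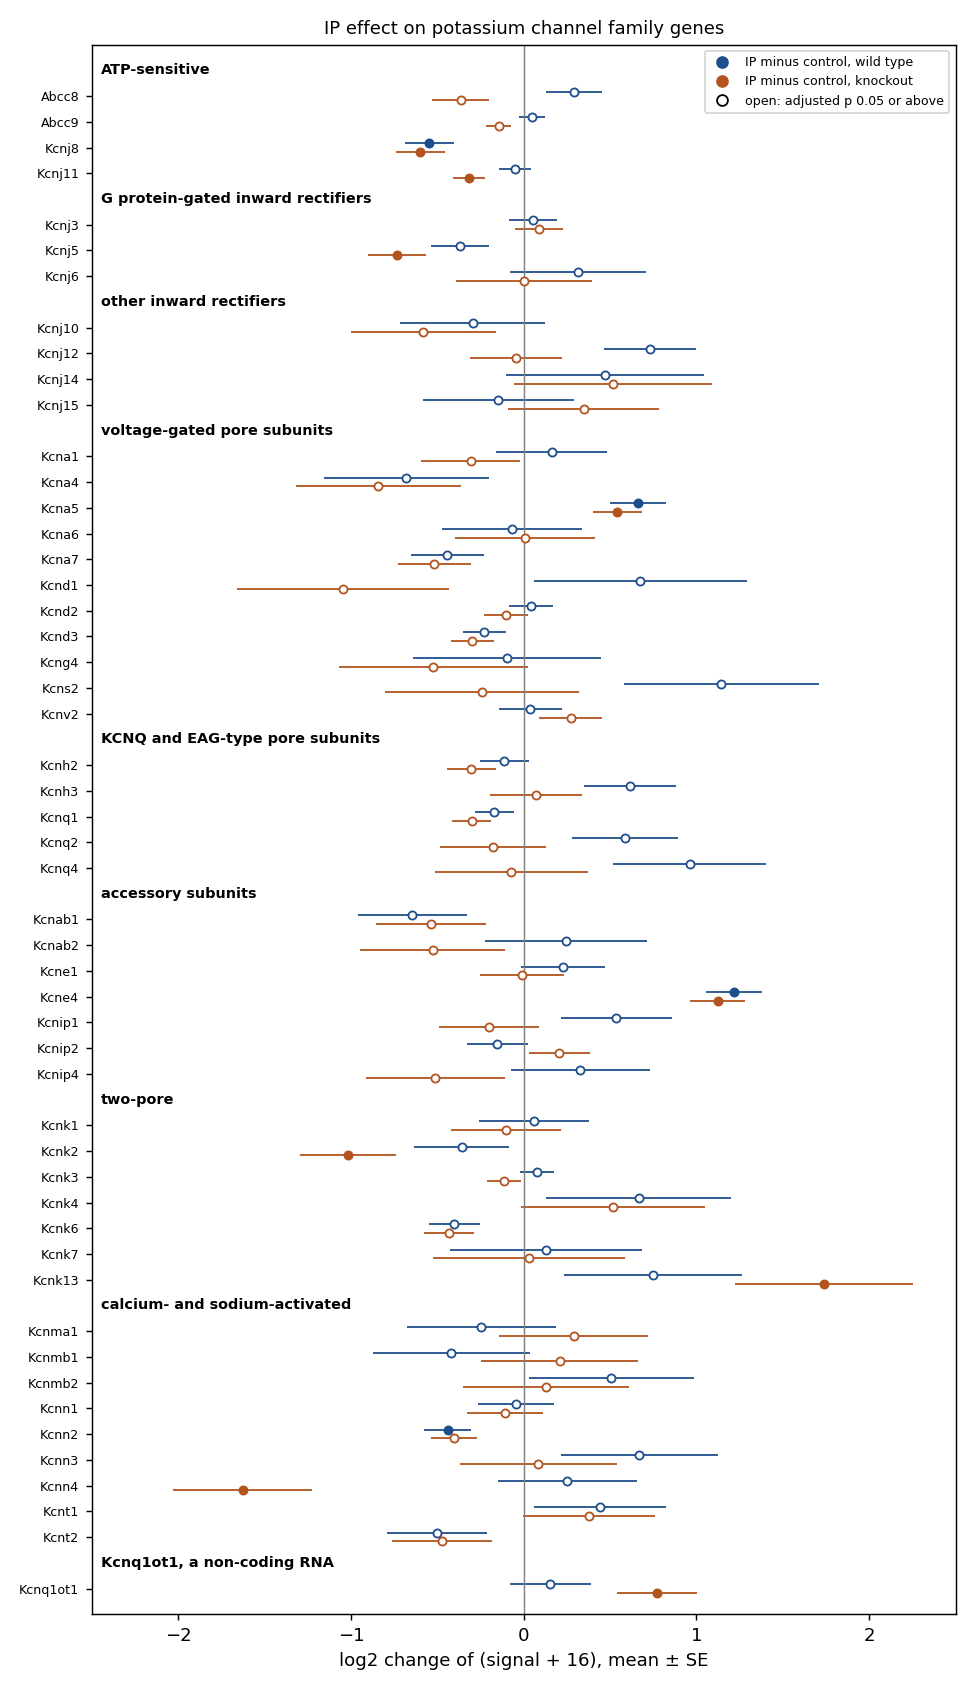
Log2 change of (signal + 16) from control to IP, with its standard error, for tested genes of the family, grouped by role. Blue is wild type and orange is knockout, and filled points passed the threshold. Kcne4, Kcna5 and Kcnj8 are filled in both colours.

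Counts of calls depended on single arrays. Without wild-type control array 2, the wild-type count fell to 1, and it was 3 without wild-type IP array 2 or 3. The knockout count was 2 without knockout control array 2, 3 without knockout IP array 3, 4 without knockout control array 3 or knockout IP array 1, and 6 without knockout control array 1 or knockout IP array 2. The average over both genotypes gave 9 to 12 calls whichever array was left out, but not always of the same genes. Without wild-type IP array 2, 9 of its 12 calls were shared with the main fit. Kcna7, Kcnd3 and Kcnq1 were lost there, and Kcnab1, Kcnq1ot1 and Kcnt2 were gained.

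Among the ATP-sensitive channel genes, Kcnj8, the pore subunit known from vascular smooth muscle, was lower after IP in both genotypes. Kcnj8 signals in wild type were 1956, 1834 and 1413 units in control and 1105, 1087 and 1338 after IP. In knockout hearts they were 1619, 2096 and 1942 in control and 1182, 1417 and 1118 after IP. Every IP array thus lay below every control array of its genotype. The log2 change was −0.55 ± 0.14 (SE, limma adjusted p = 0.0165) in wild type and −0.60 ± 0.14 (adjusted p = 0.0124) in knockout, and −0.57 ± 0.10 in the average (adjusted p = 0.000668), a level 1.49-fold lower. The wild-type call was lost without wild-type control array 1 or 2 or wild-type IP array 1 or 2 (adjusted p = 0.0564 to 0.072), and the knockout call without knockout control array 2 (0.0578) or knockout IP array 3 (0.0629). The average call held in every alternative that was run.

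Markers of smooth muscle and pericytes were set beside Kcnj8. None of the 9 passed in wild type and 2 were lower in knockout, and the median log2 change was −0.041 and −0.168. Their summed signal, over the 8 markers with values on all arrays, ranged from 13847 to 15220 units in wild-type control and from 12879 to 15561 in wild-type IP. It ranged from 13074 to 14753 in knockout control and from 12509 to 14181 in knockout IP. These ranges overlap between control and IP. Of 8 endothelial markers, 4 were lower and 1 higher in wild type, and 3 lower and 1 higher in knockout. Their summed signal was 15844 to 17923 units in wild-type control, 12998 to 14167 in wild-type IP, 14499 to 17888 in knockout control and 14639 to 15616 in knockout IP. The part of these cell types in the Kcnj8 result was not tested.

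Abcc9, the sulfonylurea receptor that partners both pore subunits in the cardiovascular system, lies next to Kcnj8 in RefSeq with 0 protein-coding genes between. Abcc9 signals in wild type were 11610, 13792 and 12765 units in control and 12533, 13709 and 13092 after IP. In the knockout they were 12075, 12901 and 13576 in control and 11573, 12367 and 10912 after IP. Control and IP arrays overlapped in both genotypes, and the log2 changes of 0.05 ± 0.08 (adjusted p = 0.732) and −0.15 ± 0.08 (adjusted p = 0.239) did not pass. The wild-type value is −0.05 after quantile normalization. These values are of the brightest Abcc9 probe set. Tested on their own, its dimmer probe sets changed by 0.004 ± 0.09 and −0.10 ± 0.11 in wild type. In knockout they changed by −0.23 ± 0.09 (limma adjusted p = 0.138) and −0.02 ± 0.11 (adjusted p = 0.935).

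Kcnj11, the pore subunit of the ventricular muscle channel, passed in the knockout only, which does not show that the genotypes differ. Kcnj11 signals were 1884, 1911 and 2047 units in knockout control and 1585, 1563 and 1527 in knockout IP. Wild-type arrays gave 1749, 1992 and 1614 in control and 1777, 1766 and 1618 after IP. The knockout groups did not overlap and the wild-type groups did. The change was −0.32 ± 0.09 (adjusted p = 0.0371) in knockout and −0.05 ± 0.09 (adjusted p = 0.775) in wild type, and the difference between these effects was −0.27 ± 0.13 (adjusted p = 0.645). The knockout call was lost without any 1 of the 6 knockout arrays (adjusted p = 0.0645 to 0.127), with no intensity trend (0.0613), and with the mean of the gene's probe sets (0.0861).

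The second Kcnj11 probe set was dimmer and read 404, 400 and 230 units in knockout control and 262, 204 and 269 in knockout IP, so its groups overlapped. Its wild-type signals were 269, 242 and 179 in control and 188, 199 and 163 after IP. Tested on its own it changed by −0.43 ± 0.22 in knockout (adjusted p = 0.261) and −0.29 ± 0.22 in wild type (adjusted p = 0.447). In the authors' deposited table this second probe set has a decision of lower in wild type, with a log2 change of −0.482.

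Abcc8, the receptor best known from the pancreatic beta cell and in mice from the atrium, read 727, 862 and 607 units in wild-type control and 960, 748 and 984 in wild-type IP. In knockout hearts it read 631, 767 and 788 in control and 464, 566 and 664 after IP. Control and IP arrays overlapped in both genotypes. Its changes of 0.29 ± 0.16 (adjusted p = 0.254) and −0.37 ± 0.16 (adjusted p = 0.167) had opposite signs and neither passed. Of the 4 ATP-sensitive genes 1 was lower in the average and none was higher, where 17.7% of all genes were lower and 8.52% higher.

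**Figure D2:**
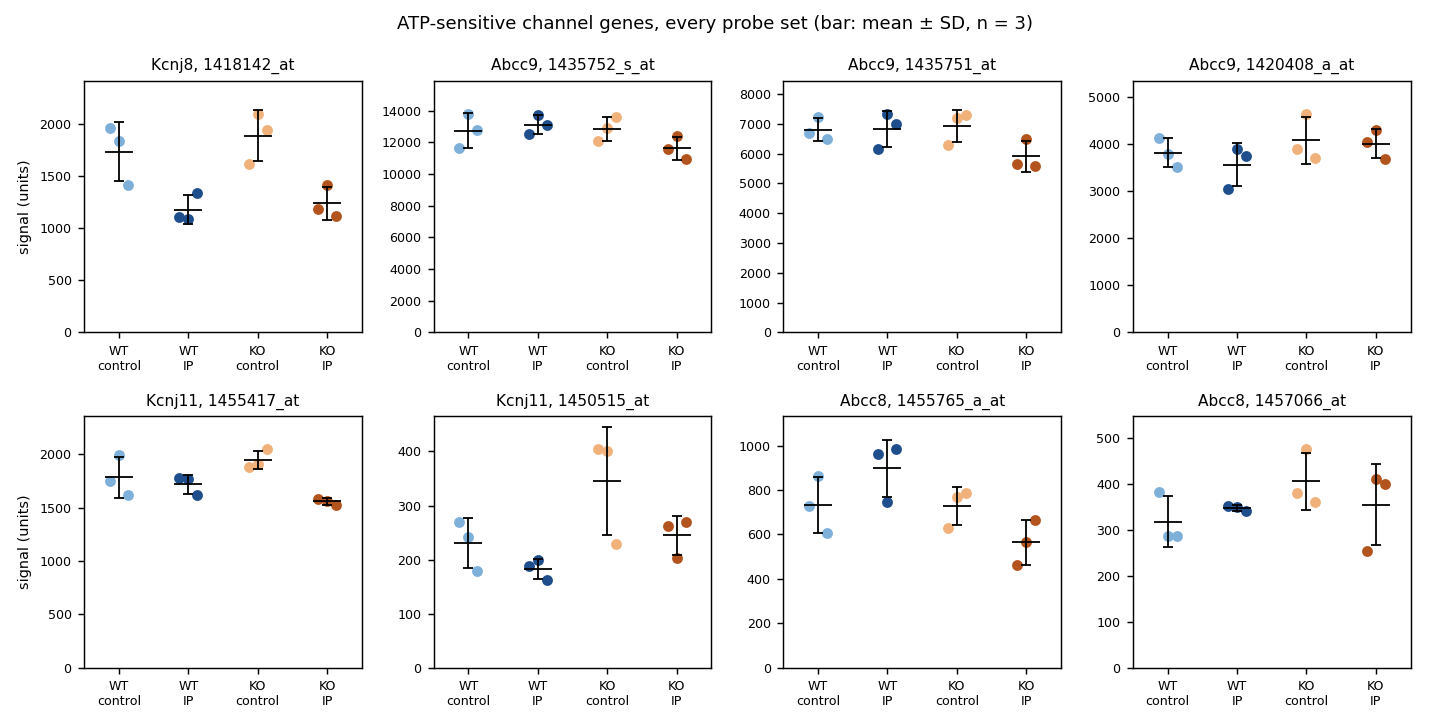
Signal in array units for each probe set of the ATP-sensitive channel genes that passed the filter, by group (WT, wild type, KO, A2BAR-/-). Points are arrays and bars are the mean ± SD over 3 arrays. Kcnj8 IP arrays lie below all control arrays of the same genotype, while all 3 Abcc9 probe sets overlap between control and IP in wild type.

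Among the 3 tested G protein-gated inward rectifier genes, Kcnj5, a pore subunit of the acetylcholine-activated atrial and nodal channel, was lower after IP in knockout and in the average. Kcnj5 signals were 1244, 1212 and 1214 units in knockout control and 564, 913 and 755 in knockout IP. In wild type they were 1426, 1283 and 919 in control and 963, 861 and 926 after IP. The knockout groups did not overlap, whereas in wild type the lowest control array lay below 2 of the IP arrays. The log2 change was −0.73 ± 0.17 (adjusted p = 0.0101) in knockout, −0.37 ± 0.17 (adjusted p = 0.152) in wild type and −0.55 ± 0.12 (adjusted p = 0.00307) in the average. Taking the mean of both Kcnj5 probe sets ended the knockout call (adjusted p = 0.28) and the average call (0.0523). Leaving out wild-type control array 3 brought the wild-type change past the threshold (0.0316). Tested on its own, the dimmer Kcnj5 probe set changed by −0.81 ± 0.45 in wild type (limma adjusted p = 0.282). Its knockout change was −0.27 ± 0.45 (adjusted p = 0.792), so on that probe set the larger drop was in wild type. Kcnj3, the partner of Kcnj5, stood at 337 ± 7.11 units in wild-type control and 352 ± 48.4 in wild-type IP (SD over 3 arrays). In knockout it stood at 387 ± 60.6 in control and 410 ± 4.47 after IP. Kcnj3 changed by 0.05 ± 0.14 in wild type and 0.09 ± 0.14 in knockout, and neither passed. 

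Kcnj2, the main pore subunit of the resting ventricular current, was below the filter, with signals from 0.8 to 16.6 units on this platform's single probe set. Kcnj12, which joins it in that current, read 159, 282 and 263 units in wild-type control and 424, 405 and 343 in wild-type IP. Its knockout signals were 471, 189 and 290 in control and 281, 331 and 254 after IP. The wild-type groups were separate and the knockout groups overlapped. The wild-type change of 0.73 ± 0.27 missed the threshold (adjusted p = 0.0772). It passed when wild-type groups were fitted alone (0.0472), or without knockout control array 1 (0.0368) or 2 (0.0393). The knockout change was −0.04 ± 0.27 (adjusted p = 0.942). Of the inward rectifier genes outside the ATP-sensitive and G protein-gated groups, 4 were tested (Kcnj10, Kcnj12, Kcnj14 and Kcnj15). None of these passed in an IP comparison, and the unadjusted p was 0.0155 for Kcnj12 in wild type.

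Among voltage-gated pore subunits outside the Kcnq and Kcnh genes, 2 of 13 tested genes were higher and 2 lower in the average. Over all genes 8.52% were higher and 17.7% lower in that average over both genotypes. Kcna5, a pore subunit of the ultrarapid delayed rectifier, was higher in both genotypes. Kcna5 signals were 1941 and 1339 units on the wild-type control arrays that measured it and 2644, 2395 and 2652 in wild-type IP. The knockout arrays read 2361, 1904 and 1617 in control and 2976, 2751 and 2764 after IP. The IP arrays of both genotypes lay above all control arrays. The third wild-type control array was missing for this probe set, so that group mean rests on 2 arrays. The change was 0.66 ± 0.16 (adjusted p = 0.0124) in wild type, 0.54 ± 0.14 (adjusted p = 0.0241) in knockout and 0.60 ± 0.11 (adjusted p = 0.000941) in the average, a level 1.52-fold higher. The wild-type call was lost without wild-type control array 2 (adjusted p = 0.155). The knockout call was lost with no intensity trend (0.073) and without knockout control array 2 (0.0695) or 3 (0.106) or knockout IP array 1 (0.0804) or 3 (0.065). With the zeros kept as values no Kcna5 call remained. The authors' deposited table gives log2 changes of 0.413 and 0.598 and no decision for this probe set.

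Among the same pore subunits, Kcna7, a voltage-gated gene, and Kcnd3, a pore subunit of the transient outward current, passed in the average only. Kcna7 signals were 458, 293 and 453 units in wild-type control, 238, 272 and 357 in wild-type IP, 424, 350 and 359 in knockout control and 192, 315 and 284 in knockout IP. Its average change was −0.48 ± 0.15 (adjusted p = 0.0292). Kcnd3 signals were 683, 724 and 534 units in wild-type control, 544, 552 and 540 in wild-type IP, 624, 605 and 663 in knockout control and 475, 537 and 519 in knockout IP. Kcnd3 groups were separate in knockout and overlapped in wild type, and its average change was −0.26 ± 0.09 (adjusted p = 0.0385). The Kcna7 call was lost without wild-type control array 1 or 3, wild-type IP array 1 or 2, knockout control array 1 or knockout IP array 1 (adjusted p = 0.0568 to 0.0755), and the Kcnd3 call without any 1 array other than wild-type control array 3 and knockout IP array 2 (0.0506 to 0.0988). Quantile normalization also ended both calls (0.0586 and 0.0544). 

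The partners of Kcnd3 in the transient outward current did not pass. Kcnd2, a second pore subunit of that current, changed by 0.04 ± 0.13 in wild type (adjusted p = 0.872) and −0.10 ± 0.13 in knockout (adjusted p = 0.674). These values are of its brightest probe set. Tested on their own, its dimmer probe sets above the filter changed by 0.16 to 0.64 in wild type and −0.31 to 0.20 in knockout. None of them passed, and the smallest limma adjusted p was 0.09, for the wild-type change of 0.64 ± 0.23. Kcnip2, its calcium-binding accessory subunit, changed by −0.15 ± 0.18 (adjusted p = 0.61) and 0.21 ± 0.18 (adjusted p = 0.506). Kcna4, the slow transient outward pore subunit, was dim, at 68.8 ± 12.6 units in wild-type control and 42.0 ± 27.8 in wild-type IP (SD), and changed by −0.68 ± 0.48 (adjusted p = 0.371). In knockout it was at 68.5 ± 26.8 and 34.5 ± 25.3 units, a change of −0.84 ± 0.48 (adjusted p = 0.289).

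Of 5 tested KCNQ and EAG-type genes, Kcnq1, the pore of the slow delayed rectifier, was lower in the average by its brightest probe set. Kcnq1 signals on that probe set were 1386, 1529 and 1221 units in wild-type control, 1210, 1172 and 1276 in wild-type IP, 1328, 1688 and 1591 in knockout control and 1309, 1264 and 1148 in knockout IP. The knockout groups were separate and the wild-type groups overlapped. Its average change was −0.23 ± 0.08 (adjusted p = 0.0415). That call was lost in 14 of the alternatives, among them leaving out wild-type control array 1 or 2, wild-type IP array 1 or 2, knockout control array 2 or 3, or knockout IP array 2 or 3 (adjusted p = 0.0611 to 0.104). The mean of the gene's probe sets also ended it (−0.43, adjusted p = 0.108).

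The 3 Kcnq1 probe sets above the filter differed in size of change. The second read 51.1, 72.0 and 101.4 units in wild-type control, 315, 39.7 and 35.2 in wild-type IP, 55.1, 75.1 and 32.1 in knockout control and 46.7, 70.5 and 26.2 in knockout IP. Its groups overlapped, and its average change was 0.00 ± 0.41 (adjusted p = 1). The third read 92.2, 138 and 61.4 units in wild-type control, 73.8, 27.3 and 44.8 in wild-type IP, 95.4, 70.7 and 98.5 in knockout control and 36.9, 13 and 34.5 in knockout IP. Its knockout groups were separate and its wild-type groups overlapped. Tested on its own, the third changed by −1.05 ± 0.26 in the average (adjusted p = 0.0106) and by −1.28 ± 0.37 in knockout (adjusted p = 0.0445). In the same fit of single probe sets the brightest changed by −0.23 ± 0.08 in the average (adjusted p = 0.0532).

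Kcnh2, the pore of the rapid delayed rectifier, changed by −0.11 ± 0.14 in wild type (adjusted p = 0.645) and −0.31 ± 0.14 in knockout (adjusted p = 0.186).

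Kcnq1ot1 was higher after IP in the knockout. It read 67.8, 68.0 and 88.0 units in knockout control and 115, 165 and 138 in knockout IP, and the groups were separate. In wild type it read 119, 125 and 147 in control and 160, 107 and 180 after IP, with overlap. The change was 0.77 ± 0.23 (adjusted p = 0.0433) in knockout and 0.15 ± 0.23 (adjusted p = 0.708) in wild type. In the authors' deposited table the same probe set changed by 0.151 in knockout and 0.304 in wild type, with no decision. There the second probe set above the filter changed by 0.218 and 0.499, also with no decision, so the larger change is in wild type. The knockout call was lost in 13 of the alternatives, among them leaving out wild-type control array 2, wild-type IP array 1, any of the 3 knockout control arrays, or knockout IP array 2 or 3 (adjusted p = 0.0526 to 0.137).

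Kcne4, an accessory subunit that inhibits several voltage-gated and KCNQ pores, had the smallest p of the family in each IP comparison. Kcne4 signals were 233, 228 and 326 units in wild-type control and 667, 663 and 543 in wild-type IP. In knockout hearts they were 266, 340 and 360 in control and 767, 652 and 730 after IP. All 6 IP arrays lay above all 6 control arrays. The log2 change was 1.21 ± 0.16 (adjusted p = 0.000167) in wild type, a level 2.32-fold higher, and 1.12 ± 0.16 (adjusted p = 0.00035) in knockout, 2.18-fold higher. The average change was 1.17 ± 0.12 (adjusted p = 3.69e-06). Kcne4 passed in each IP comparison under every alternative run, each left-out array included. Of the other tested accessory subunits, none passed in an IP comparison, and Kcne1, the partner of Kcnq1, changed by 0.23 ± 0.24 in wild type (adjusted p = 0.569) and −0.01 ± 0.24 in knockout (adjusted p = 0.985). 

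**Figure D3:**
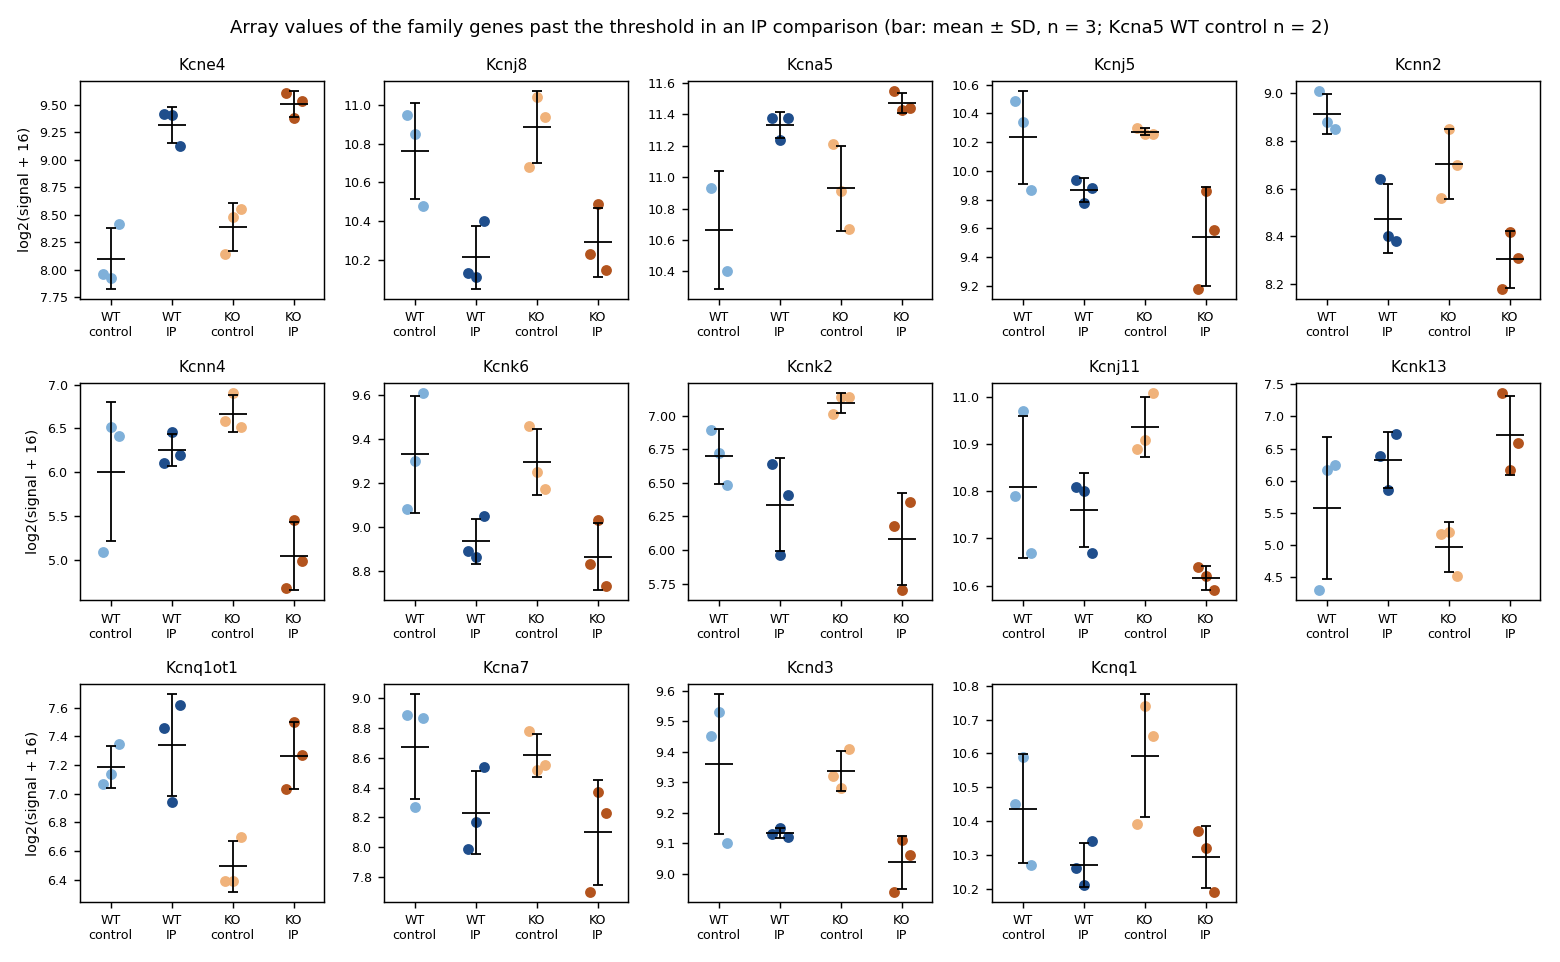
Log2(signal + 16) on each array for family genes that passed in at least 1 IP comparison, by group (WT, wild type, KO, A2BAR-/-). Points are arrays, bars are the mean ± SD, and each panel has its own scale that does not begin at 0. Kcne4 IP arrays all lie above the control arrays, and Kcnk13 and Kcnn4 are low on single wild-type control arrays.

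Of 7 tested two-pore channel genes, whose channels carry background currents, 1 was higher and 2 were lower in the average. Over all genes 8.52% were higher and 17.7% lower, and with 7 genes the share is no result about the group. Kcnk6 signals were 526, 616 and 767 units in wild-type control and 457, 448 and 514 in wild-type IP. The knockout arrays read 690, 592 and 560 in control and 438, 507 and 408 after IP. Kcnk6 arrays were separate in both genotypes, and the gene passed in the average alone, at −0.42 ± 0.10 (adjusted p = 0.00838). 

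Kcnk2, a stretch-sensitive two-pore channel, was lower in knockout and in the average. Kcnk2 signals were 113, 125 and 125 units in knockout control and 56.3, 36.0 and 65.9 in knockout IP, and in wild type 103, 89.1 and 73.3 in control and 83.6, 46.4 and 68.9 after IP. The change was −1.02 ± 0.28 (adjusted p = 0.0261) in knockout, where the groups were separate, and −0.69 ± 0.20 (adjusted p = 0.0171) in the average. The knockout call was lost without any 1 knockout array other than knockout IP array 3 (adjusted p = 0.0524 to 0.0908) and without a filter on low values (0.0522). 

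Kcnk13 was higher in knockout and in the average. Kcnk13 signals were 20.1, 20.8 and 6.9 units in knockout control and 149, 55.4 and 79.7 in knockout IP. In wild type they were 3.7, 56.2 and 60.1 in control and 67.6, 42.2 and 89.7 after IP. The knockout groups were separate, and wild-type control array 1 was far below the other wild-type arrays. The means of log2(signal + 16) were 5.57 in wild-type control and 4.97 in knockout control, both below the filter of 5.78, against 6.32 and 6.70 after IP. The gene thus passed the filter through its IP groups, and the size of its change rests on control levels under the filter. The change was 1.74 ± 0.52 (adjusted p = 0.0404) in knockout and 1.24 ± 0.37 (adjusted p = 0.0204) in the average. The knockout call was lost in 12 of the alternatives, among them leaving out wild-type IP array 1, any of the 3 knockout control arrays, or knockout IP array 1 or 3 (adjusted p = 0.0524 to 0.161), and the average call without wild-type IP array 3 (0.0507) or knockout IP array 1 (0.0596). Kcnk3, an acid-sensitive background channel, changed by 0.08 ± 0.10 in wild type (adjusted p = 0.656) and −0.11 ± 0.10 in knockout (adjusted p = 0.511).

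Among 9 tested calcium- and sodium-activated genes, Kcnn2, a small-conductance channel, was lower in wild type and in the average. Kcnn2 signals were 500, 454 and 446 units in wild-type control and 382, 322 and 317 in wild-type IP. The knockout arrays read 362, 446 and 399 in control and 273, 326 and 301 after IP. Control and IP arrays were separate in both genotypes. The change was −0.44 ± 0.14 (adjusted p = 0.0374) in wild type and −0.42 ± 0.10 (adjusted p = 0.00442) in the average. The wild-type call was lost in 10 of the alternatives, among them leaving out any of the 3 wild-type control arrays or wild-type IP array 2 or 3 (adjusted p = 0.0589 to 0.115), and the average call in none.

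Kcnn4, an intermediate-conductance channel known from blood cells and endothelium, was lower in knockout. Kcnn4 signals were 79.5, 104 and 75.9 units in knockout control and 9.7, 27.8 and 15.8 in knockout IP. In wild type they were 18, 75.7 and 68.8 in control and 53.1, 71.9 and 57.5 after IP. The knockout groups were separate, and wild-type control array 1 was as low as the knockout IP arrays. The mean of log2(signal + 16) in knockout IP was 5.04, below the filter of 5.78, against 6.67 in knockout control. The change was −1.63 ± 0.40 (adjusted p = 0.0158) in knockout. In the authors' deposited table the same probe set changed by −0.181 with no decision, so the sizes of the 2 summaries differ widely. The call was lost without knockout control array 2 (adjusted p = 0.0644), knockout IP array 1 (0.0588) or knockout IP array 3 (0.0519).

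The authors' deposited table, whose log2 values differ from those of the deposited signals, gives a decision of higher or lower for each probe set. For IP in wild type it lists Kcne4, Kcnip3 and Kcnk13 as higher and Kcnd3, Kcnj11, Kcnj5, Kcnj8, Kcnn1 and Kcnn2 as lower. In the knockout the authors' deposited table lists Kcne4 and Kcnk13 as higher and Kcnd3, Kcnj5, Kcnj8, Kcnk2 and Kcnn2 as lower. Kcne4 changed by 0.954 in wild type and 1.004 in knockout in the authors' deposited table, and Kcnj8 by −0.508 and −0.656. These tables come from the same arrays and are no independent check.

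Other cardiac channel, pump and channel-regulator genes gave a comparable count. Of 34 listed genes 31 were tested, and 1 was higher and 8 were lower in the average, which is 29% against 26.2% of all genes. The sodium-calcium exchanger Slc8a1 was lower by a log2 change of −0.76 ± 0.12 (adjusted p = 0.000249). The beta-1 adrenoceptor gene Adrb1 was lower by −0.62 ± 0.10 (adjusted p = 0.00047), and the chloride transporter gene Clcn3 by −0.46 ± 0.07 (adjusted p = 0.000223). The caveolin gene Cav3 was the gene higher, at 0.24 ± 0.07 (adjusted p = 0.0195). The list had a median change of −0.072 against −0.068 over all genes.

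The knockout and wild-type hearts were then compared within each treatment. No family gene passed in controls or after IP, where 0.0356% and 0.114% of all genes passed. At an unadjusted p under 0.05, 5 of 53 family genes were counted in controls, against 6.59% of all genes, and 7 after IP, against 12.7%. In controls Kcne1 and Kcnq1ot1 were among the 3 genes with the smallest p, and after IP these were Kcne1, Kcnip2 and Abcc8. In the average over both treatments, a contrast added after the data were examined, Kcne1 alone passed and was lower in knockout, where 0.142% of all genes passed and 0.0997% were lower. The median log2 difference of the family was 0.088 in controls and −0.157 after IP, against −0.002 and −0.027 over all genes. For the cardiomyocyte markers it was 0.004 in controls and −0.219 after IP.

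Kcne1 signals were 216, 191 and 222 units in wild-type control and 298, 276 and 185 in wild-type IP. In knockout hearts they were 69.6, 93.0 and 142 in control and 109, 102 and 82.1 after IP. All 6 knockout arrays lay below all 6 wild-type arrays. The log2 difference was −0.98 ± 0.24 (adjusted p = 0.362) in controls, −1.23 ± 0.24 (adjusted p = 0.071) after IP and −1.10 ± 0.17 (adjusted p = 0.0219) in the average, a level 2.15-fold lower in knockout. The second Kcne1 probe set read 134, 181 and 39.2 units in wild-type control, 90.4, 74.8 and 169 in wild-type IP, 21.2, 33.2 and 72.3 in knockout control and 13.4, 83.1 and 7.4 in knockout IP. It overlapped between the genotypes, and on its own differed by −1.34 ± 0.40 in the average (adjusted p = 0.165).

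The average call of Kcne1 was lost without wild-type IP array 1 (adjusted p = 0.0556) or 2 (0.0666), knockout control array 2 (0.067) or knockout IP array 3 (0.0537), and with no intensity trend (0.0572), the mean of both probe sets (0.0716) or the zeros kept (0.0951). After IP it passed with array weights (0.0433), with each probe set tested on its own (0.0482), with the IP groups fitted alone (0.0465) and without knockout control array 3 (0.0427). In the authors' deposited table both Kcne1 probe sets carry a decision of lower in knockout, at −1.014 and −0.572 in controls and −1.041 and −0.738 after IP. Because Kcne1 is more abundant in the mouse atrium and conduction system than in working ventricle, atrial markers were set beside it. Of 5 atrial markers 2 were tested, and Nppa differed by −0.36 ± 0.14 (adjusted p = 0.345) and Myl4 by −0.13 ± 0.18 (adjusted p = 0.846) in the average. Their summed signal was 13932 to 19438 units in wild-type control, 15726 to 22671 in wild-type IP, 10792 to 13740 in knockout control and 10173 to 17472 in knockout IP. It was lower in knockout control than in wild-type control without overlap, and its part in the Kcne1 result was not tested.

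Kcnip2 signals were 1448, 1178 and 1285 units in wild-type control and 990, 1116 and 1440 in wild-type IP. In the knockout they were 1841, 2146 and 1216 in control and 1985, 1839 and 2030 after IP. After IP the genotypes were separate, and in controls knockout array 3 lay within the wild-type range. The log2 difference was 0.37 ± 0.18 (adjusted p = 0.757) in controls, 0.73 ± 0.18 (adjusted p = 0.112) after IP and 0.55 ± 0.12 (adjusted p = 0.102) in the average. After IP it passed without knockout control array 3 (0.0427) and with the IP groups fitted alone (0.0441).

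Abcc8 after IP was lower in every knockout array than in every wild-type array, by −0.66 ± 0.16 (adjusted p = 0.119), while the control difference was 0.00 ± 0.16. Its second probe set read 351, 350 and 340 units in wild-type IP and 253, 411 and 400 in knockout IP, with overlap. The authors' deposited table gives Abcc8 a decision of lower in knockout IP, with a log2 difference of −0.468, for the brighter probe set only.

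**Figure D4:**
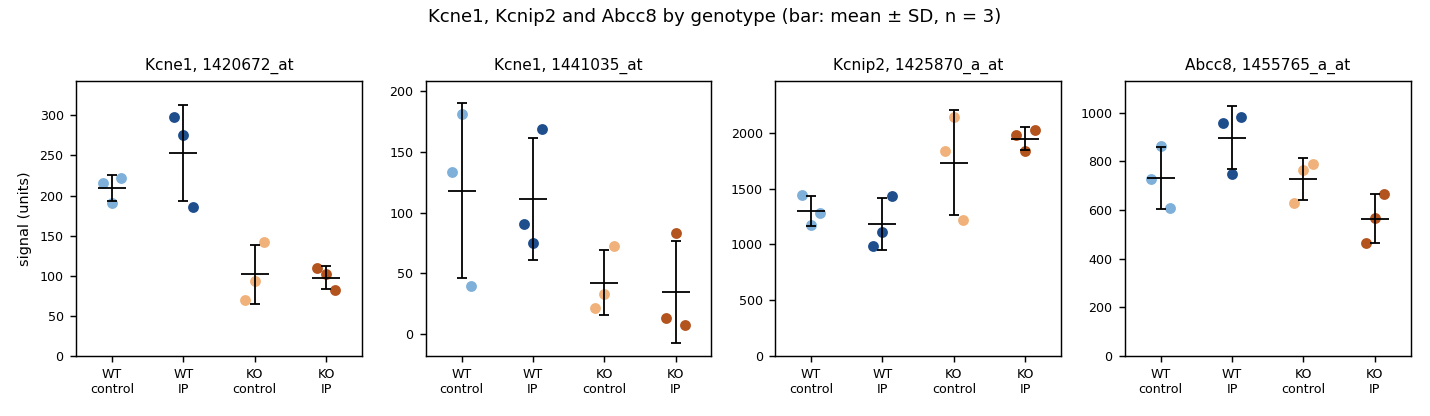
Signal in array units of both Kcne1 probe sets, Kcnip2 and the brighter Abcc8 probe set, by group (WT, wild type, KO, A2BAR-/-). Points are arrays and bars are the mean ± SD over 3 arrays, and the SD bar of the dim Kcne1 probe set in knockout IP reaches below 0. The brighter Kcne1 probe set is lower on all knockout arrays than on all wild-type arrays.

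Of the remaining classic cardiac genes none passed between the genotypes. The ATP-sensitive genes Kcnj8, Kcnj11 and Abcc9 differed by 0.12 ± 0.14, 0.13 ± 0.09 and 0.02 ± 0.08 in controls, and by 0.07 ± 0.14, −0.14 ± 0.09 and −0.18 ± 0.08 after IP. Among the rectifier genes, Kcnj12 differed by 0.36 ± 0.27 in controls and −0.42 ± 0.27 after IP, Kcnj5 by 0.04 ± 0.17 and −0.32 ± 0.17, and Kcnj3 by 0.18 ± 0.14 and 0.22 ± 0.14. Adjusted p-values of these 6 genes lay between 0.348 for Abcc9 after IP and 0.98 for Abcc9 in controls. Kcnd2, Kcnd3, Kcna4, Kcna5, Kcnq1, Kcnh2 and Kcnk3 differed by −0.04 (Kcna4) to 0.26 (Kcna5) in controls and by −0.21 (Kcnk3) to 0.14 (Kcna5) after IP. The authors' deposited table also lists Kcne4 as higher in knockout, by 0.453 in controls and 0.503 after IP. It lists Kcnk2 in controls (0.489) and, after IP, the dimmer probe sets of Kcnj11 (0.509) and Kcnk3 (0.565) as higher too.

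The last comparison asked whether IP acted differently in the knockout. No family gene and no gene of the 14044 passed, and 2 of 53 family genes had an unadjusted p under 0.05, against 7.87% of all genes. The 3 smallest p belonged to Kcnn4, at −1.88 ± 0.57 (adjusted p = 0.495), Abcc8, at −0.66 ± 0.23 (adjusted p = 0.505), and Kcnj11, at −0.27 ± 0.13 (adjusted p = 0.645). The median difference of the family was −0.163, with 24.5% of the genes above 0, against −0.029 and 45.8% over all genes. The cardiomyocyte markers went the same way, at a median of −0.207 with 10% above 0. Their part in the family's median was not tested. The authors' deposited table lists no probe set of the family in this comparison.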

How the data were processed

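The authors deposited a linear signal intensity for each probe set on each array, and the submitters' processing notes name MAS5. The authors' deposited table of tests gives, per the file headers, log2 differences, a decision score of −1, 0 or 1, and an adjusted p-value. How its log2 values were made is not stated in the labels.

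Signals were taken as log2(signal + 16), so folds of dim genes are understated. A signal of 0 was set as missing where it stood in a run of 100 or more, 64 control probe sets were left out, and probe sets below the 40th percentile of mean signal were left out. The 4 group means were fitted jointly in limma 3.58.1 (R 4.3.3) with 12 arrays, 8 residual degrees of freedom and a variance trend with intensity, and the code was tested on simulated data. Tests were two-sided. Errors are standard errors unless named SD. The family's members, the gene lists and the tests were chosen with earlier results of these data known. Genes named are all those past the threshold, a list of classic cardiac channel genes whatever their values, and the 3 smallest p where none passed, and some genes that this rule names are not reported here. The average genotype contrast was added after the data were examined. Replicate numbers were checked for pairing, with correlations between same-numbered arrays of −0.056 to 0.076, and were not used as pairs. Alternatives were offsets of 1 and 64, quantile normalization, other filters (none, 60th percentile), no trend, robust moderation, array weights, other probe set rules, zeros kept, a replicate block, the groups compared alone and each array left out. Gene symbols follow an NCBI RefSeq table, and no symbol of the family changed by it.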

Additional observations from a re-analysis of the deposited data

How the results depend on the processing

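The count of family genes past the threshold was 5 for IP in wild type, 9 in knockout and 12 in the average. In knockout it was 5 with the filter at the 60th percentile, which removes dim genes from the test, and 5 when a gene's probe sets were averaged. With each array left out in turn it was 1 to 6 in wild type, 2 to 10 in knockout and 9 to 12 in the average. Between the genotypes after IP, where 0 genes passed, 1 passed with array weights, 1 with every probe set tested on its own and 2 with the groups compared alone, and 0 to 2 with an array left out. For the average genotype difference the count of 1 became 0 with no intensity trend, 0 with averaged probe sets and 0 with the zeros kept, and was 0 to 2 with an array left out. The control and interaction comparisons gave 0 in each left-out setting. With the replicate number as a block the counts were 4 in wild type, 6 in knockout (without Kcnj11, Kcnk13 and Kcnq1ot1) and 11 in the average. The numbers did not pair the arrays, so a call lost under the block is no sign of a weaker effect.

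Among the named genes the sign turned only where the change had not passed. For IP in knockout with 1 array left out, the log2 change ranged from −0.2 to 0.028 for Kcnd2, from −0.217 to 0.227 for Kcne1, from −0.028 to 0.378 for Kcnip2, from −0.35 to 0.276 for Kcnj12 and from −0.194 to 0.024 for Kcnk3. In wild type it ranged from −0.018 to 0.106 for Abcc9, from −0.057 to 0.095 for Kcnd2, from −0.183 to 0.018 for Kcnh2, from −0.118 to 0.033 for Kcnj11 and from −0.053 to 0.107 for Kcnj3. Kcne1 in knockout became 0.089 with array weights. Kcnj12 in knockout became 0.005 and Abcc9 in wild type −0.051 with quantile normalization. Averaged probe sets gave 0.145 for Kcnk3 in knockout and −0.018 for Abcc9 in wild type. In the authors' deposited table the changes were 0.175 for Kcne1 and 0.097 for Kcnj12 in knockout, and −0.039 for Abcc9, 0.239 for Kcna4 and −0.088 for Kcnj3 in wild type. The cause of these changes was not tested. Kcne4 kept its call in all 3 IP comparisons under every alternative run, and Kcnj8, Kcnk6 and Kcnn2 kept theirs in the average. Genes near the filter, such as Kcnk13, Kcnn4 and Kcnk2, carry wide standard errors, so smaller changes of these genes may not be detectable with 3 arrays per group.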

Other observations

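Kcna2 and Kcne2 lay below the filter and passed only with no filter and 1 probe set taken per gene. Kcna2 passed there for IP in wild type and in the average, and Kcne2 in the average. With no filter and every probe set tested on its own, no probe set of the genes below the filter passed. In the authors' deposited table the wild-type changes were 0.211 for Kcna2 and 0.134 for Kcne2, with no decision. Kcna2, a voltage-gated pore gene known from nerve, read 22.0, 9.2 and 9.6 units in wild-type control and 69.9, 68.9 and 50.2 in wild-type IP, and 14.9, 38.8 and 7.6 in knockout control and 40.5, 42.2 and 10.1 in knockout IP. The wild-type groups were separate and the knockout groups overlapped. Kcne2, an accessory subunit of KCNQ and EAG-type pores, read 22.7, 2.7 and 1.6 units in wild-type control, 32.9, 37.2 and 28.7 in wild-type IP, 6.1, 2.3 and 4.7 in knockout control and 4.4, 17.4 and 18.8 in knockout IP. Of 5 tested markers of Schwann cells and neurons, none passed in wild type and 1 was lower in knockout.

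The 3 Kcnk3 probe sets above the filter did not move together between the genotypes. After IP the brightest differed by −0.21 ± 0.10 (knockout minus wild type, adjusted p = 0.347 with each probe set tested on its own), a second by 0.09 ± 0.14 (adjusted p = 0.82) and the third by 0.65 ± 0.18 (adjusted p = 0.11). The third read 337, 435 and 301 units in wild-type IP and 592, 481 and 628 in knockout IP, without overlap. Of the 5 tested Kcnd2 probe sets, one differed between the genotypes by −0.80 ± 0.24 in the average (adjusted p = 0.158) and the brightest by 0.02 ± 0.09 (adjusted p = 0.96).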
